A study of Mus musculus with 8 samples.

Results

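Bone morphogenetic proteins (BMPs) are secreted signals of the TGF-beta superfamily, and 10 genes of their core pathway were followed here through potassium depolarisation of neurons: the ligands Bmp2, Bmp4, Bmp6 and Bmp7, the type I receptors Bmpr1a and Bmpr1b, the type II receptor Bmpr2, and the receptor-activated SMADs Smad1, Smad5 and Smad9. The genes were listed by name, and each was read from the brightest probe set annotated to it alone. All 10 of the listed genes were found among the 22180 genes that the arrays name in this way.

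The cells were hippocampal neurons from C57BL/6J mouse embryos at day E18.5, grown for 11 days in vitro, with cytosine arabinoside (AraC), which kills dividing cells, in the medium of all cultures. No transgene or mutation is named for either group. The 4 untreated cultures were compared with 4 cultures exposed to 55 mM KCl for 4 h, which depolarises neurons and lets calcium in through voltage-gated channels. RNA from each was read on 1 Affymetrix whole-transcript array, and values are log2 probe set values, so that a difference of 1 is a doubling. Each array has a mouse number of its own in the labels, but replicate numbers 1 to 4 recur in both groups, and arrays of the same number deviated from their group means together.

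A BMP ligand binds a complex of type I and type II receptor kinases. The type II receptor phosphorylates the type I receptor, which phosphorylates SMAD1, SMAD5 or SMAD9, and these enter the nucleus with SMAD4 and regulate genes such as those of the Id family. Secreted antagonists hold ligands away from receptors, while SMAD6, SMAD7 and the SMURF ubiquitin ligases restrain the receptors and SMADs. In the brain the pathway is known for roles in dorsal patterning, in the choice between neuronal and astrocyte fates, and in dendrite growth and synapse formation.

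The stimulus was visible in these arrays: Fos, the textbook immediate early gene, ranged from 5.57 to 6.90 without KCl and from 10.30 to 10.56 with it. Of 7 activity genes taken as a check 5 rose (Fos 18.2-fold, Fosb 43.0-fold, Junb 7.29-fold, Egr4 4.85-fold and Nr4a1 16.2-fold), and the other two, Npas4 and Arc, stood at 16.6-fold and 2.96-fold (limma adjusted p = 0.0517 and 0.0915). Neuronal markers were present, with Snap25 at 12.21 to 12.47 and Map2 at 11.37 to 11.85 over the 8 arrays, and so were those of astrocytes, with Gfap at 10.45 to 11.25. Of 6 microglial markers Csf1r (3.76 to 4.14), Aif1 and C1qa lay below the array medians of 4.44 to 4.48 in every array. P2ry12 and Tmem119 lay on both sides of the medians, and Cx3cr1 (4.99 to 5.77) alone lay above them in every array. Of 6 endothelial markers Cldn5 (3.56 to 3.90), Flt1, Cdh5 and Tek lay below in every array. Pecam1 lay on both sides, and Kdr (5.18 to 8.34) alone lay above in every array. The cultures are thus mixed, and in bulk RNA fewer cells of a type and less RNA per cell cannot be told apart.

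None of the 10 BMP genes passed the test between KCl and untreated arrays, which left out replicate number (limma, Benjamini-Hochberg adjusted p under 0.05 over all genes). In that test 2.36% of all genes passed (1.34% higher after KCl and 1.02% lower). With the replicate number as a block 1 BMP gene, Bmpr1a, passed, as did 4.44% of all genes. Without the block 1 BMP gene, Bmpr1a, had an unadjusted p under 0.05, against 13% of all genes. All 10 estimates lay above 0, as did 47.1% of all genes, with a median log2 change of 0.23 beside -0.01 over all genes. The sign held in all alternative fits, some of which cannot change it, for 4 genes (Bmp4, Bmpr1a, Bmpr2 and Smad1). It turned in at least 1 fit for 6 (Bmp2, Bmp6, Bmp7, Bmpr1b, Smad5 and Smad9). For Bmp7 and Smad5 it turned only where 1 array was left out and its same-numbered partner was kept. With a whole pair left out of the block fit, their log2 changes were 0.16 to 0.43 and 0.23 to 0.31. In same-numbered pairs, 4 of the 10 genes (Bmp4, Bmpr1a, Bmpr2 and Smad5) were higher after KCl in 4 of 4 pairs, compared with 11% of all genes. None was lower in all 4, compared with 13.2% of all genes, and 24.2% of all genes went 1 way in all 4 pairs.

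**Figure D1:**
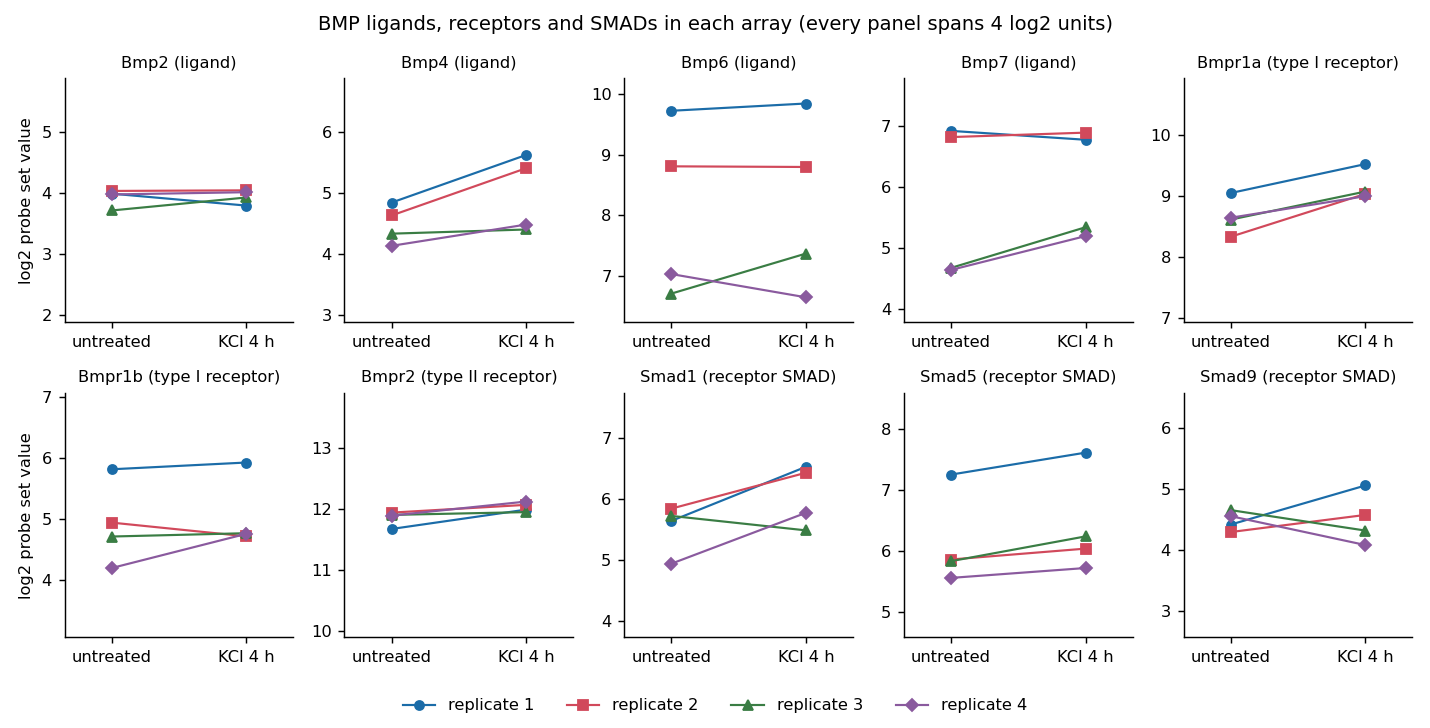
Log2 probe set value (vertical axis) of each of the 10 BMP genes in untreated and KCl 4 h arrays, with a line joining the arrays of 1 replicate number; every panel has the same vertical span. For Bmp6 and Bmp7 the lines of replicates 1 and 2 lie above those of replicates 3 and 4, for Smad5 the line of replicate 1 lies above the others, and the 4 lines of Bmpr1a all run upward, by 0.35 to 0.70.

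Bmpr1a encodes a widely expressed BMP type I receptor in development and in the adult. Its probe set (17305042) stood at 9.05, 8.33, 8.61 and 8.64 in untreated replicates 1 to 4 and at 9.52, 9.03, 9.07 and 8.99 in the KCl arrays of the same numbers. Every KCl array was above its same-numbered partner, by 0.47, 0.70, 0.46 and 0.35, yet the groups overlapped, because untreated replicate 1 lay above KCl replicates 2 and 4. The mean went from 8.66 ± 0.295 to 9.15 ± 0.246 (SD, n = 4 each), a 1.41-fold difference with a 95% interval of 1.07 to 1.86.

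That difference did not pass without regard to replicate number (log2 change 0.50, SE 0.176, limma adjusted p = 0.247). With the replicate number as a block the SE fell to 0.101 and Bmpr1a passed (limma adjusted p = 0.0474), as did 4.44% of all genes in that fit (2.43% higher and 2.01% lower). It was the sole BMP gene to do so, while 4 (Bmp4, Bmpr1a, Smad1 and Smad5) had an unadjusted p under 0.05 with the block, against 18.2% of all genes. The call did not survive leaving out any 1 of the same-numbered pairs, with adjusted p of 0.117, 0.142, 0.164 and 0.0985 without pairs 1 to 4 and log2 changes of 0.43 to 0.55. The means of 4 cell type marker lists also differed 1 way in 4 of 4 pairs: that of 7 astrocyte markers was different by -0.36 to -0.06 and that of 6 markers of progenitors and cycling cells higher by 0.23 to 0.99, while those of 7 meningeal and fibroblast markers and of 6 endothelial markers were higher by 0.06 to 0.14 and by 0.06 to 0.09. Of the astrocyte markers 1 of 7 fell (Slc1a2, limma adjusted p = 0.0479, and 0.0620 with the block), and Fgfr3 and Aldh1l1, those of widest range, did not pass (limma adjusted p = 0.922 and 0.966). None of the 6 progenitor markers passed, and of those of widest range Pax6 had an adjusted p of 0.545 (0.0461 with the block, limma) and Top2a one of 0.825. The part of these cells in the Bmpr1a difference was not tested.

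Bmpr1b, the second type I receptor, which is more restricted in its expression, was set apart by replicate 1 rather than by KCl. Its untreated values were 5.82, 4.94, 4.71 and 4.20, and its KCl values 5.93, 4.72, 4.77 and 4.76. Both arrays numbered 1 lay above the other 6. The log2 difference of 0.13 (SE 0.383, limma adjusted p = 0.966) was higher in 3 of 4 pairs, and its interval reached from a fold of 0.595 to one of 2.0.

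Bmpr2, the type II receptor that serves BMP ligands in general, was the single BMP gene whose groups did not overlap. It read 11.67, 11.94, 11.90 and 11.89 in untreated arrays and 11.99, 12.06, 11.95 and 12.12 after KCl. The lowest KCl array was barely above the highest untreated array, and 8.16% of all genes had groups without overlap, 3.83% with the KCl arrays above. The difference was small, 1.13-fold with a 95% interval of 0.978 to 1.31, and it did not pass (log2 change 0.18, SE 0.0930, limma adjusted p = 0.496). A further probe set, 17213336, is annotated to Bmpr2 together with Gm20272, so it could not be given to Bmpr2. Its untreated mean was 9.23 ± 0.105 and its KCl mean 9.52 ± 0.139 (SD, n = 4 each), and the log2 difference of 0.29 missed the threshold when all probe sets were tested (limma adjusted p = 0.259).

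**Figure D2:**
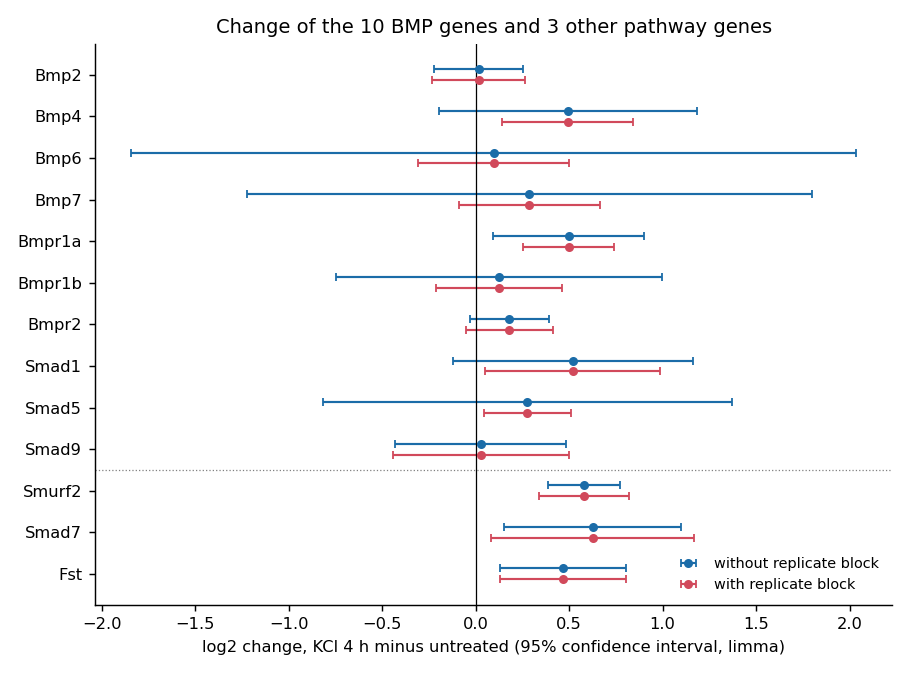
Log2 change (KCl 4 h minus untreated) with its 95% confidence interval from limma for the 10 BMP genes and, under the dotted line, for 3 other pathway genes, fitted without (blue) and with (red) the replicate number as a block. The intervals of Bmp6, Bmp7 and Smad5 narrow most with the block, and those of Bmpr1a, Smurf2, Smad7 and Fst lie above 0 in both fits. The intervals are not adjusted for the number of genes tested.

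Among the ligands, Bmp4, which patterns the dorsal telencephalon, had the largest estimate. Its untreated values were 4.84, 4.63, 4.33 and 4.13, around the array medians, and its KCl values 5.62, 5.41, 4.40 and 4.48. In both groups the arrays numbered 1 and 2 lay above those numbered 3 and 4, and replicate number took 65.9% of its variation. Arrays numbered 1 and 2 were higher after KCl by 0.78 and 0.77, but the pair numbered 3 by 0.07. The mean difference of 1.41-fold had a 95% interval of 0.873 to 2.27 and did not pass (log2 change 0.49, SE 0.302, limma adjusted p = 0.604, and 0.133 with the replicate block).

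Bmp6 and Bmp7, ligands of the same subgroup that signal largely through the activin-type receptor ACVR1, varied far more between replicate numbers than with KCl. Bmp6 read 9.72, 8.81, 6.72 and 7.04 in untreated arrays and 9.84, 8.80, 7.38 and 6.66 after KCl, so that arrays numbered 1 and 2 lay above those numbered 3 and 4 in both groups. The means of its pairs spanned 2.93 log2 units, a range exceeded by 0.212% of all genes. Against this the KCl difference was 0.10 (SE 0.850, limma adjusted p = 0.989), with a 95% interval of 0.279-fold to 4.10-fold, and it was positive in 2 of 4 pairs. With the block the interval of that log2 difference narrowed to between -0.31 and 0.50.

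Bmp7 had the same division by replicate number, at 6.92, 6.81, 4.67 and 4.63 in untreated and 6.77, 6.89, 5.34 and 5.19 in KCl arrays. In the pairs numbered 3 and 4 the KCl array was higher by 0.67 and 0.56, and in those numbered 1 and 2 the differences were -0.15 and 0.07. The mean log2 difference was 0.29 (SE 0.661, limma adjusted p = 0.949, and 0.431 with the block).

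Bmp2, a close relative of Bmp4, stayed between 3.72 and 4.05 in all 8 arrays, below the array medians. Its log2 difference was 0.02 (SE 0.104, limma adjusted p = 0.985), and arrays measure transcripts poorly at such levels.

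None of the receptor-activated SMADs, which carry the signal to the nucleus, passed. Smad1 read 5.64, 5.84, 5.72 and 4.93 in untreated arrays and 6.52, 6.42, 5.48 and 5.77 after KCl. It was higher by 0.89, 0.59 and 0.83 in the pairs numbered 1, 2 and 4 and lower by 0.24 in the third, and the groups overlapped. Its mean difference was the largest of the 10 genes, 1.43-fold with a 95% interval of 0.918 to 2.23, but it did not pass (log2 change 0.52, SE 0.281, limma adjusted p = 0.530, and 0.225 with the block).

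Smad5 was higher after KCl in 4 of 4 pairs, by 0.16 to 0.41, on top of a large offset of replicate 1. Its values were 7.25, 5.86, 5.83 and 5.56 in untreated and 7.61, 6.04, 6.24 and 5.72 in KCl arrays. The log2 change of 0.28 had an SE of 0.480 (limma adjusted p = 0.923), or of 0.0976 with the replicate block (adjusted p = 0.197). Smad9, which encodes the SMAD once called SMAD8, had pair differences of 0.64 and 0.28 for numbers 1 and 2 and of -0.34 and -0.47 for numbers 3 and 4, and a mean log2 difference of 0.03 (SE 0.200, limma adjusted p = 0.987). Its values of 4.09 to 5.06 lay around the array medians.

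The variation of each gene over the 8 arrays was divided into a share that follows replicate number, a share that follows KCl, and a remainder, as a description with no test. Replicate number took 97.6% for Bmp6, 95.6% for Smad5, 94.8% for Bmp7 and 92.2% for Bmpr1b. These 4 of 10 genes were above 80%, as were 13.6% of all genes, whose median share was 46.8%. KCl took 52.7% for Bmpr1a and 51.0% for Bmpr2, against a median of 10.7% over all genes, and 0.150% for Bmp6. The remainder was smallest for Smad5, at 0.582%, and largest for Smad9, at 68.4%.

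**Figure D3:**
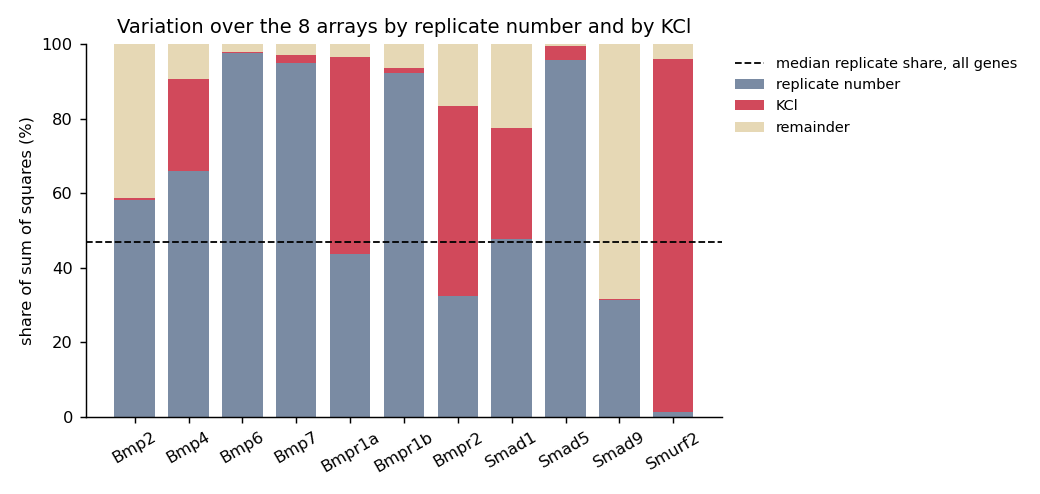
Percentage of each gene's sum of squares over the 8 arrays that follows replicate number (grey), KCl (red) and neither (beige), for the 10 BMP genes and Smurf2; the dashed line is the median replicate share over all genes, 46.8%. Replicate number fills more than 92% of the bars of Bmp6, Bmp7, Bmpr1b and Smad5, and KCl 94.7% of the Smurf2 bar.

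Genes whose centred values over the 8 arrays came nearest to those of the 3 most variable members were sought among all named genes, by the root-mean-square difference in log2 units. Nearest to Bmp7 were Myl9, a smooth muscle myosin light chain (0.125), Hspg2, the basement membrane proteoglycan perlecan (0.162), and the metalloproteinase inhibitor Timp3 (0.219). Nearest to Bmp6 were the zinc finger factor Glis3 (0.219), the Wnt carrier Wls (0.268) and the matrix protein Prelp (0.286). Nearest to Smad5 were Fam183b (0.110), Rhpn2 (0.158) and Spag17, a protein of the motile cilium (0.169).

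Markers of other cell types were set beside these genes. The mean of 7 meningeal and fibroblast markers spanned 5.31 to 5.42 where the replicate number was 1 or 2 and 4.83 to 4.97 where it was 3 or 4. Within that list the fibronectin gene Fn1 spanned 8.90 to 9.67 and 7.75 to 8.20 in the same order, the collagen gene Col1a1 4.75 to 5.33 and 3.96 to 4.30, and the pericyte receptor gene Pdgfrb 5.09 to 6.37 and 4.59 to 5.05. The defining markers Col3a1, Col1a2 and Lum were at 3.61 to 4.52 in all arrays. The seventh marker, Dcn, did not divide in this way, at 5.08 to 5.66 for replicates 1 and 2 and 5.19 to 5.92 for replicates 3 and 4. The mean of 4 genes of ciliated ependymal cells, a list added after the genes nearest to Smad5 were seen, was 7.39 and 7.17 in the arrays numbered 1 and 4.60 to 5.23 in the other 6. Its master regulator Foxj1 stood at 8.07 and 7.46 in the arrays numbered 1 and at 4.96 to 6.27 elsewhere, and Dynlrb2 at 7.62 and 7.71 and at 4.12 to 4.67. The mean of 9 neuronal markers was 9.45 and 9.47 in the arrays numbered 1 and 9.83 to 10.18 in the others. Its members of widest range were the GABA synthesis genes Gad1, at 3.96 to 7.04 over the 8 arrays, and Gad2, at 6.70 to 9.15, lowest in the arrays numbered 1 in both groups. Tubb3, Map2, Syt1 and Slc17a7 were also lowest there in both groups, and Syp and Rbfox3 in 1 group only. Snap25 went the other way, at 12.47 and 12.36 in the arrays numbered 1 and 12.21 to 12.35 in the others. The mean of 7 choroid plexus genes, also added later, spanned 5.53 to 5.91 for replicates 1 and 2 and 4.81 to 5.36 for replicates 3 and 4. Transthyretin (Ttr) was at 8.59 to 12.23 over the 8 arrays, lowest in those numbered 3 (8.63 and 8.59), and Folr1 at 4.98 to 7.15. Folr1, Otx2 and Clic6 were higher for replicates 1 and 2. Kl went the other way, at 3.83 to 3.97 for replicates 1 and 2 and 4.06 to 4.41 for replicates 3 and 4. Aqp1 (3.66 to 4.09) and Kcne2 (4.07 to 4.25) did not divide in this way. The list means were 4.15 to 4.66 for 6 endothelial markers, 4.22 to 4.56 for 6 microglial ones and 4.91 to 5.39 for 6 of the oligodendrocyte lineage. In the endothelial list Kdr stood at 7.76 to 8.34 for replicates 1 and 2 and at 5.18 to 5.62 for replicates 3 and 4, while Pecam1 lay at 3.99 to 4.64. The part these cells have in the levels of Bmp6, Bmp7, Bmpr1b and Smad5 was not tested. Between KCl and untreated arrays of the same number the means of the meningeal list differed by 0.06 to 0.14 and those of the ependymal list by -0.22 to 0.16.

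**Figure D4:**
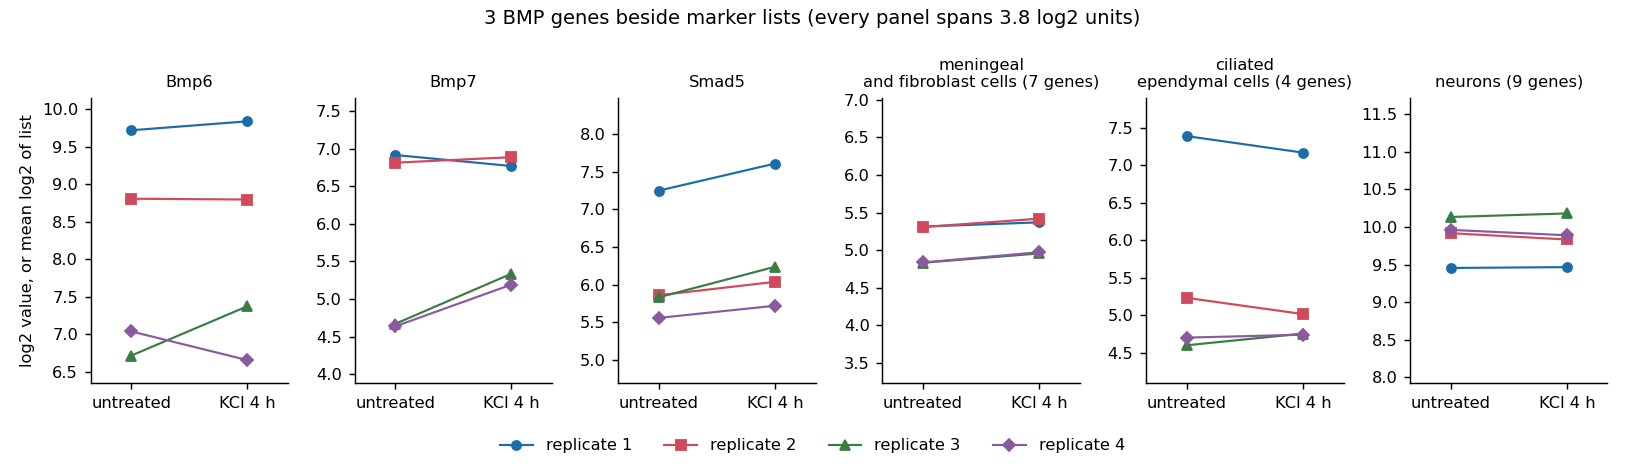
Log2 values of Bmp6, Bmp7 and Smad5 beside the mean log2 value of marker lists for meningeal and fibroblast cells, ciliated ependymal cells and neurons, in untreated and KCl 4 h arrays joined by replicate number; every panel has the same vertical span. Replicates 1 and 2 lie above replicates 3 and 4 for Bmp6, Bmp7 and the meningeal list, and replicate 1 lies alone at the top for Smad5 and the ependymal list and at the bottom for the neuronal list.

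Beyond the 10 genes, 52 of 58 listed genes of the BMP pathway were measured, in 5 lists, and 1 of them passed, where 2.36% of all genes did. An unadjusted p under 0.05 was found for 3 of the 52, against 13% of all genes. The gene that passed was Smurf2, which encodes a ubiquitin ligase that marks receptors and receptor-activated SMADs for degradation. It rose from 8.02, 8.08, 7.96 and 8.18 in untreated arrays to 8.73, 8.64, 8.62 and 8.57 after KCl. Every KCl array lay above every untreated one, and the differences within pairs were all positive. The mean went from 8.06 ± 0.0914 to 8.64 ± 0.0647 (SD, n = 4 each), a 1.49-fold rise with a 95% interval of 1.31 to 1.71 (log2 change 0.58, SE 0.0849, limma adjusted p = 0.0138, and 0.0294 with the replicate block). Its call was lost without KCl replicate 3 (adjusted p = 0.0503), without both arrays numbered 1 (0.0570) and with trended and robust eBayes (0.0661), at log2 changes of 0.54 to 0.59. It was also lost when a same-numbered pair was left out of the block fit (adjusted p = 0.0687 to 0.134, log2 changes of 0.54 to 0.64). Its homologue Smurf1 stood between 7.63 and 8.27 in untreated and between 7.91 and 8.09 in KCl arrays.

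In the list of shared and inhibitory signalling genes that holds Smurf2, Smurf2 was the 1 gene of 9 measured that passed, where 2.36% of all genes did. The median log2 change of the list was 0.30, beside -0.01 over all genes. Smad7, an inhibitory SMAD, averaged 4.33 ± 0.251 without and 4.95 ± 0.394 with KCl (SD, n = 4 each), higher in 3 of 4 pairs (log2 change 0.63, limma adjusted p = 0.212). Its untreated values of 3.98 to 4.57 lay around the array medians. Ppm1a, a phosphatase that acts on SMADs, differed by 0.30 (adjusted p = 0.413). Smad4, the partner shared by all the receptor-activated SMADs, read 8.49 to 8.89 in untreated and 8.23 to 9.08 in KCl arrays.

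None of 11 other ligands passed, with a median log2 change of -0.01 and a range from -0.18 to 0.07. The smallest p-values there were those of Gdf5, Bmp8b and Bmp10, all 3 at log2 changes between -0.15 and -0.10 (limma adjusted p = 0.732 to 0.782). None of 7 other receptors and coreceptors passed. Acvr1, the type I receptor used by Bmp6 and Bmp7, averaged 7.91 ± 0.215 without and 7.55 ± 0.377 with KCl (SD, n = 4 each; log2 change -0.36, limma adjusted p = 0.525) and lower in 3 of 4 pairs. Acvrl1 and the coreceptor Rgmb differed by 0.13 and 0.18 (adjusted p = 0.719 and 0.723).

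None of 15 secreted antagonists and modulators passed. The antagonist with the smallest p was Fst (follistatin), which binds activins and some BMPs. It read 6.11, 6.27, 5.94 and 5.77 in untreated and 6.29, 6.48, 6.79 and 6.39 in KCl arrays, without overlap between the groups (limma adjusted p = 0.182). Fst and Smurf2 were the 2 of the 52 other pathway genes with all KCl arrays above all untreated ones, as were 3.83% of all genes. Chrd and Sost followed, at log2 changes of -0.14 and -0.09 (adjusted p = 0.798 and 0.837), and Nog, the BMP antagonist noggin, lay at 3.86 to 4.40 in all arrays.

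None of 10 measured BMP target genes passed, and their median log2 change was 0.00. Hes1 differed by 0.41, Atoh8 by 0.41 and Id1 by 0.34 (limma adjusted p = 0.587, 0.831 and 0.797). The largest difference was that of Id3, -0.63 (limma adjusted p = 0.907, and 0.232 with the block), lower in 4 of 4 pairs. Of the 10 target genes 2 were higher and 2 lower after KCl in 4 of 4 pairs, compared with 11% and 13.2% of all genes. Id3 and Id4, inhibitors of helix-loop-helix factors named here after their values were seen, followed replicate number: Id3 read 8.34, 6.54, 4.21 and 4.63 in untreated and 6.85, 5.72, 4.16 and 4.47 in KCl arrays. Replicate number took 91.0% of the variation of Id3 and 97.4% of that of Id4, and both were higher in arrays numbered 1 and 2 than in those numbered 3 and 4, as were Bmp6 and Bmp7. The share of their variation that follows KCl was 4.88% and 1.41%.

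**Figure D5:**
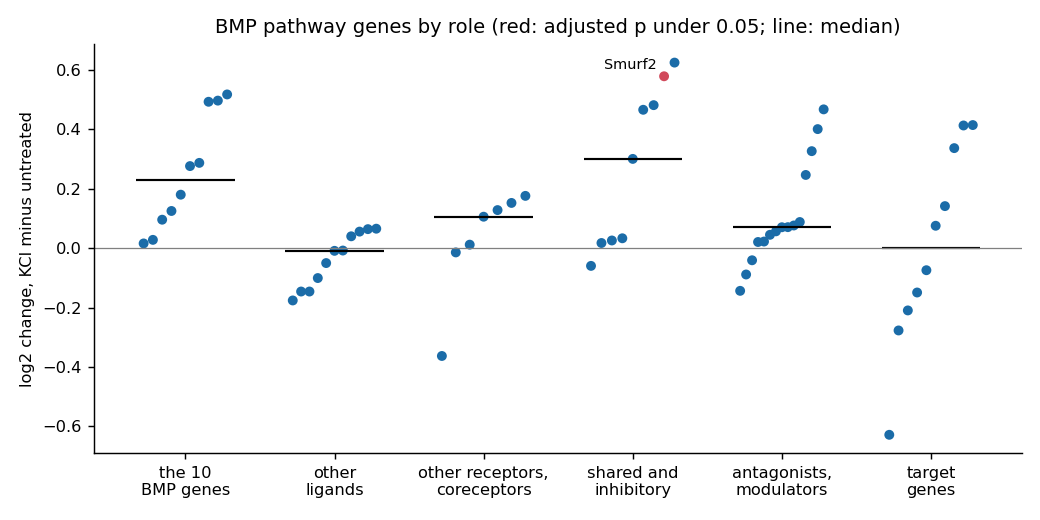
Log2 change (KCl 4 h minus untreated) of each measured gene of the BMP pathway, grouped by role, with the median of each group as a line and genes past an adjusted p of 0.05 in red. Smurf2 is the one red point, and the 11 other ligands lie within 0.18 of 0.

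Sequences upstream of the gene start were taken for the 3 genes on which these results turn: Bmpr1a, which passed with the replicate block, Bmpr2, whose groups did not overlap, and Smurf2, which rose. The 250 bases before the RefSeq gene start (assembly GRCm38.p6) are printed 5′ to 3′ along the gene, for chr14:34502547-34502796 on the minus strand, chr1:59764029-59764278 on the plus strand and chr11:106920716-106920965 on the minus strand. Capitals mark GGCGCC, a GC-rich sequence that BMP SMADs can bind.
Bmpr1a: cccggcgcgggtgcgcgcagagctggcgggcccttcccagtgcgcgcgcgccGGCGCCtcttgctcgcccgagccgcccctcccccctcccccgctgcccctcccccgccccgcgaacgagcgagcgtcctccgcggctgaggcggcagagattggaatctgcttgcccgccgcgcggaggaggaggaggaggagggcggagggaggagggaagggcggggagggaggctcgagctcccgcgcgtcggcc
Bmpr2: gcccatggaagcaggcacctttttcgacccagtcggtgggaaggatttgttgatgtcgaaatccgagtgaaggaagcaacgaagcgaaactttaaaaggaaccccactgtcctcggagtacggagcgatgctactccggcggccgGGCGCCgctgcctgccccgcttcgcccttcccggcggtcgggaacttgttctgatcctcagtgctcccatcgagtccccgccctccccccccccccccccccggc
Smurf2: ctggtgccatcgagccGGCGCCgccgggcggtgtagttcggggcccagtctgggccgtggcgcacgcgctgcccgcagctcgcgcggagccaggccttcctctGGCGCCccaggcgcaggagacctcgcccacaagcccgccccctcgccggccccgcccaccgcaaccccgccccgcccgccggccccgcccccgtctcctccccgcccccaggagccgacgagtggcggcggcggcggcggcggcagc

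GGCGCC, which reads the same on both strands, stood once in the Bmpr1a window, from position -198 relative to the gene start, once in that of Bmpr2, from position -105, and 2 times in that of Smurf2. The 8 BMP genes with any window had 12, of which 4 (33.3%) held it, those of Bmpr1a, Bmpr2, Smad5 and Smad9, as did 9.59% of all 32851 windows. The windows printed are 78.8%, 64.0% and 82.0% G and C in the same order, and GGCGCC was found in 26.1% of windows with at least 60% G and C. Neither the cyclic AMP response element TGACGTCA (1.55% of all windows) nor the AP-1 site TGANTCA (6.75%), searched on both strands, was in the printed windows or in any window of the other BMP genes. In the 6 windows of the activity genes used as a check, GGCGCC was found in 4 (66.7%) and the other 2 motifs in none. A match or its absence in so short a stretch is only a description of these letters.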

How the data were processed

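Each of the 8 arrays had 1 column of log2 probe set values, which the authors deposited after RMA normalization; Partek and RMA are named in the submitters' processing notes, without versions. Of 34472 probe sets, 23521 had 1 gene symbol in the platform annotation, 1814 had several and 9137 were unnamed and not used. For a gene with several probe sets (1082 genes) the one of highest mean over the arrays was kept, leaving 22180 genes. The groups were tested over all these genes by lmFit and eBayes of limma (3.58.1, under R 4.3.3), with Benjamini-Hochberg adjustment and a threshold of 0.05, without a replicate block. The fit with the block was an alternative. Same-numbered arrays deviated together (r = 0.638, 0.234, 0.409 and 0.368 for numbers 1 to 4; the highest of the other pairings was 0.302), so the numbers were taken to pair the arrays. The labels do not say what a number marks, and p-values measure the spread between these arrays. The number of arrays limits the precision: the median SE over all genes was 0.142. On simulated data with 4 arrays in each group the fit recovered 69% of genes changed by 1 log2 unit and 92% of those changed by 2. The simulation held no offset shared by replicate number and no change below 1, while the largest BMP estimate was 0.52. Its rates are averages over random genes, and the SEs of Bmp6, Bmp7, Bmpr1b and Smad5 (0.383 to 0.850) were above the median, so the rates do not hold for these genes. Named genes were the 10 members, in each of the 5 pathway lists the genes past the threshold in either fit and otherwise the 3 of smallest p, the activity genes, the 3 genes nearest in pattern to each of the 3 most variable members, and the 2 markers of largest range in a list. Smad4, Smurf1, Nog, Smad7, Ppm1a, Id3, Id4 and the other markers were named outside that rule, after their values were seen. The members and lists were chosen with earlier results of these data known. Lists for astrocytes, neurons, meningeal and fibroblast cells, microglia, endothelial cells, oligodendrocyte lineage and progenitors were supplemented with ependymal and choroid plexus lists after the values were seen. Sequences are from RefSeq; no window was listed for Bmp2 and Bmp7. Alternatives were normalization, centring, a level filter, probe set rules, moderation, array weights and leaving arrays out.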

Additional observations from a re-analysis of the deposited data

Results flagged for a closer look

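In 64 groups of 4 arrays (32 genes, untreated and KCl), 5 had a highest or lowest array set far from the others, by Dixon's test at the 95% level; chance gives about 1 in 20 such groups. Both cases among the 20 groups of the BMP members concern KCl replicate 1. Bmpr1a stood at 9.52 there, with the next array at 9.07, and Bmpr1b at 5.93, with the next at 4.77. The other 3 cases are pathway genes near or below the array medians: Bmp8b at 4.51 in untreated replicate 2, Bmp10 at 3.46 in KCl replicate 1 and Chrd at 4.48 in KCl replicate 1. Without KCl replicate 1 the log2 change of Bmpr1a was 0.38 (limma adjusted p = 0.409). That fit kept untreated replicate 1, the highest untreated array at 9.05. Without both arrays numbered 1 the log2 change was 0.50 (limma adjusted p = 0.0973).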

How the results depend on the processing

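Of 217 alternative values for the 10 BMP genes, 195 kept their direction and side of the threshold, 1 passed it (Bmpr1a with the replicate block) and 21 changed sign, none with an adjusted p below 0.760. The block over all arrays, the moderation settings, the level filter and the probe set rules left the log2 changes of these genes as they were. Direction could not turn in those fits, so they do not count towards its stability. The count of BMP genes past the threshold was 1 with the replicate block and 0 in every other alternative. Leaving out 1 array gave log2 changes of -0.0557 to 0.0661 for Bmp2, -0.46 to 0.64 for Bmp6, -0.087 to 0.67 for Bmp7, -0.17 to 0.43 for Bmpr1b, -0.13 to 0.65 for Smad5 and -0.16 to 0.17 for Smad9. With the replicate block and 1 pair left out, Bmp2 was -0.0498 and Bmp6 -0.0909 without replicate 3, Bmpr1b -0.0198 without replicate 4, and Smad9 -0.18 without replicate 1 and -0.0562 without replicate 2. Smad9 was -0.0246 with array weights and -0.18 without both arrays numbered 1. Over all genes, 297 rose and 227 fell; the counts were 539 and 446 with the replicate block, 89 and 40 without moderation, and 119 and 27 with the block and without replicate 3. With trended and robust eBayes 150 fell, and 81 with the block and without replicate 4. Leaving out 1 array gave 118 to 254 rising and 68 to 247 falling genes. The count of other pathway genes, 1, was 0 with trended and robust eBayes, without both arrays numbered 1 and with the block without any 1 replicate, and 0 to 1 when 1 array was left out. The causes were not tested. The replicate block changed no other call among the BMP genes and the named pathway genes. Of the activity genes and markers named, Npas4, Gad2 and Pax6 passed with the replicate block (limma adjusted p = 0.0324, 0.0458 and 0.0461), and Slc1a2 did not (0.0620).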
